A study of Mus musculus with 29 samples.

Results

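ON direction-selective (ON DS) retinal ganglion cells (RGCs) were compared with the other ON cells of the series that were neither direction selective nor alpha. The series holds 29 single RGCs from adult C57BL/6 mice (C57BL/6J in the study's methods), each recorded in the intact retina with a cell-attached electrode, classed by its spike response to visual stimuli, collected into a glass pipette and hybridized to 1 Affymetrix Mouse 430 2.0 array. Members were chosen by their functional class in the labels and by no measured value, which gave 8 of the 29 cells. On one side stood 4 ON DS cells (ON DS 1 to ON DS 4). The other side held 4 cells of 4 classes with 1 cell each: an ON orientation-selective cell preferring vertical stimuli (ON vOS 9), an ON orientation-selective cell preferring horizontal stimuli (ON hOS 10), an ON pixel encoder (PixON 27) and an ON sustained non-alpha cell (ON S non-alpha 28). No cell carried a transgene or received a treatment, and the labels name no animal, so the cells could not be assigned to mice. Each cell is therefore 1 sample, the values below are descriptions of these 8 cells, and no p-value is given.

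RGCs are the output neurons of the retina, and a subtype is defined by its light response, its dendritic stratification and its targets in the brain. ON DS cells fire to bright edges that move slowly in a preferred direction, receive inhibition from starburst amacrine cells and send their axons to the accessory optic system, which drives the optokinetic reflex that steadies the image on the retina. Orientation-selective cells respond to bars or edges of one axis.

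The values were MAS5 signals, a linear measure of hybridization brightness that the authors scaled to the same trimmed mean (1500) on every array. A gene was called detected at a signal of at least 3000, which is 2 times that mean. Log2 signals were floored at 375, which is 8.55 on the log2 scale, so that differences below this level were not counted. Of 18194 genes, 7331 were detected in at least 1 of the 8 cells. Between 1842 and 3107 genes were detected in the ON DS cells and between 2023 and 3493 in the other ON cells, within the 1182 to 4201 of all 29 cells. Over the 7331 genes the median difference of mean log2 signal, ON DS minus other ON, was -0.33, and single genes and gene lists are read below against this value.

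The cells were first examined for the RNA of ganglion cells and of the cells around them. Of 13 ganglion cell markers, 9 were detected in each ON DS cell, 7 in ON vOS 9, 10 in ON hOS 10, 11 in PixON 27 and 7 in ON S non-alpha 28. *Sncg*, *Uchl1*, *Nefl*, *Thy1* and *Stmn2* were detected in all 8 cells. Rod transcripts were present on both sides: of 13 rod genes, 10 were detected in ON DS 1, 10 in ON DS 3, 11 in ON vOS 9, 9 in PixON 27 and 11 in ON S non-alpha 28. None was detected in ON DS 2, ON DS 4 or ON hOS 10. The summed rod signal reached 1324768 in the ON DS cells and 3518800 in the other ON cells, and from 464 to 2390 in the 3 cells without a detected rod gene. Of 8 cone genes, 0, 0, 1 and 0 were detected in ON DS 1 to 4, and 4, 0, 5 and 5 in ON vOS 9, ON hOS 10, PixON 27 and ON S non-alpha 28. ON S non-alpha 28 also held 8 of 15 Müller glia and astrocyte genes and 4 of 15 amacrine genes, against 2 to 4 and 0 in the ON DS cells. Summed over their markers, amacrine signals lay between 709 and 1680 in the ON DS cells and reached 60332 in ON S non-alpha 28. Bipolar sums were highest in ON S non-alpha 28 (114844) and ON DS 2 (85066). Horizontal cell sums were highest in ON DS 2 (140560), ON DS 3 (129019) and ON S non-alpha 28 (125406). Of 17 microglial and vascular genes, 4 were detected in ON DS 1, 3 in ON vOS 9, 3 in PixON 27, 2 in ON DS 4 and 1 in ON DS 3. The part of this other-cell RNA in the differences below was not tested, and the affected cells are named beside the results.

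**Figure D1:**
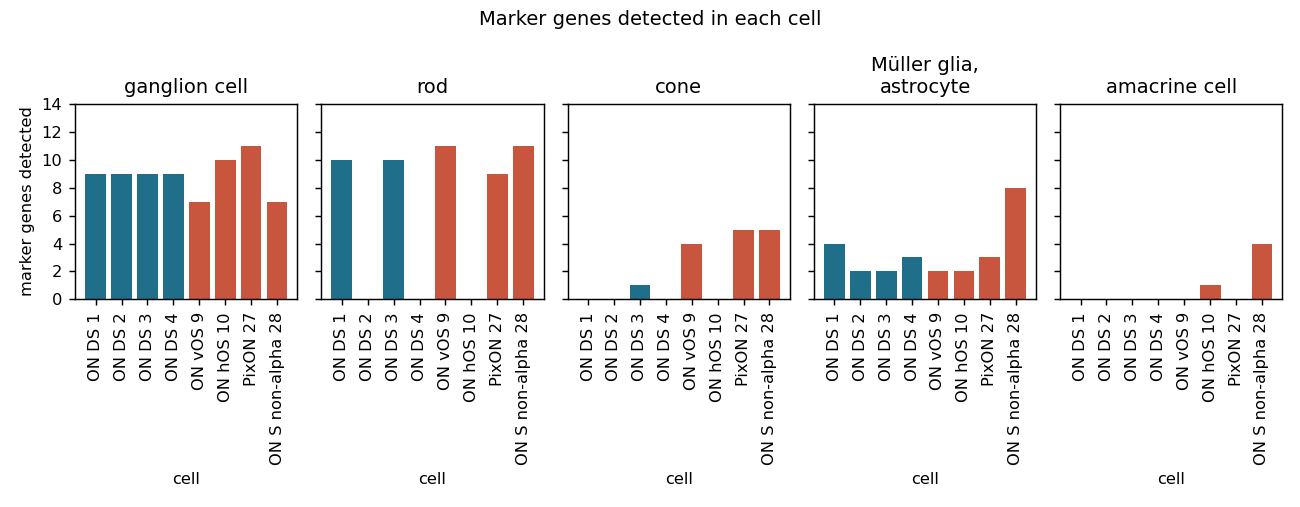
Number of marker genes detected (y axis) in each cell (x axis) for 5 retinal cell types, with ON DS cells in blue and other ON cells in red. All 4 ON DS cells held 9 ganglion cell markers, while rod genes were detected in 5 of the 8 cells and amacrine genes mainly in ON S non-alpha 28.

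*Cartpt*, *Pcdh8* and *Gap43* were read first, as the marker genes set for this comparison, and none of them separated the sides. *Cartpt* encodes the precursor of the CART neuropeptide, *Pcdh8* a protocadherin that acts in cell adhesion, and *Gap43* a growth cone protein of axons. *Cartpt* had signals of 129, 75979, 4454 and 32046 in ON DS 1 to 4, and of 17084, 4, 64451 and 187 in ON vOS 9, ON hOS 10, PixON 27 and ON S non-alpha 28. It was thus detected in 3 of 4 cells on one side and 2 of 4 on the other, and the sides overlapped over their whole range. The means of log2 signal were 12.96 ± 3.40 and 11.78 ± 3.81 (SD, n = 4 cells a side), a difference of 1.18 that is smaller than the spread within either side.

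Among these marker genes, *Pcdh8* came nearest to an ON DS pattern. The study had named *Pcdh8* as selective for direction-selective cells by visual examination and correlation of these same arrays. The pattern of *Pcdh8* is therefore no independent result. Its signals were 1465, 94891, 93859 and 26297 in ON DS 1 to 4 against 8, 123, 9020 and 58 in the other ON cells, given here and below in the order ON vOS 9, ON hOS 10, PixON 27 and ON S non-alpha 28. ON DS 2, ON DS 3 and ON DS 4 were above every other ON cell, ON DS 1 was below the threshold, and PixON 27 was the only other ON cell above it. The difference of mean log2 signal was 4.87 (14.56 ± 2.83 against 9.70 ± 2.29). A second probe set of *Pcdh8* gave 278, 24458, 24231 and 14563 against 10, 68, 2832 and 47, where PixON 27 was also below the threshold. *Gap43* was detected in all 4 ON DS cells, at 3897, 44100, 12407 and 42118, and in 2 other ON cells, with signals of 45165, 84, 12081 and 25. Its highest value of all 8 cells was that of ON vOS 9, and the difference of means was 2.55. In the 4 ON-OFF DS cells of the series, which prefer a direction at both light onset and offset, *Cartpt* was detected in 3, *Pcdh8* in 4 and *Gap43* in 4, while none of the 3 was detected in either ON alpha cell. Of the remaining 15 cells, *Cartpt* was detected in 2, *Pcdh8* in 2 and *Gap43* in 8, so *Gap43* was not particular to direction-selective cells.

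Windows upstream of the transcription start are given for *Cartpt* and *Pcdh8* as marker genes, and for *Scg2*, the granin gene described below. They are 250 bases of the RefSeq sequence of build GRCm38.p6, printed 5′ to 3′ on the strand of the gene, all 3 on the minus strand. Capitals mark the cAMP response element TGACGTCA in *Cartpt* and *Scg2* and the TATA box TATAAA in *Pcdh8*.
Cartpt, chr13:99900684-99900933: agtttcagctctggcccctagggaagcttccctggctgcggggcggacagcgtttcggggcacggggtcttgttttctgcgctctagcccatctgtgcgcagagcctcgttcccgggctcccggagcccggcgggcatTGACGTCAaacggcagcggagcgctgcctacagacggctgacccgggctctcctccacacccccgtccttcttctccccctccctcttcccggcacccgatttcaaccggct
Pcdh8, chr14:79771313-79771562: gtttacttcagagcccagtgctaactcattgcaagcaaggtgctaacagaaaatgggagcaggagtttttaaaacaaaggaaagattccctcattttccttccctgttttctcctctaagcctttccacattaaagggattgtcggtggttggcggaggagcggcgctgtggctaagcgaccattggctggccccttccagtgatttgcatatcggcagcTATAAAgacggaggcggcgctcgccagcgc
Scg2, chr1:79440027-79440276: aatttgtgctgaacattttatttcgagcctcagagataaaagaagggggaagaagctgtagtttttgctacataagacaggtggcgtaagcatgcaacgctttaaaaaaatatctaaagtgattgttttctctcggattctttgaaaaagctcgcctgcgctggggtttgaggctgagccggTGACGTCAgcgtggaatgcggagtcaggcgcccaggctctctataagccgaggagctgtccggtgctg
Counted back from the start site, the first base of the element lay at -112 in *Cartpt* and -68 in *Scg2*, and that of the TATA box at -30 in *Pcdh8*. Searched on both strands, TGACGTCA was found in 1.55% of 32851 upstream windows of this length, TATAAA in 12.4% and the E-box CACGTG, which overlaps neither, in 6.02%. Of the 33 genes named by rule, 24 had an upstream window, and TGACGTCA was also found in those of *Tmem198* and *Tra2a*. TATAAA was also found in that of *Ipo7*. CACGTG was found in a window of *Ola1*, *Kcnab1* and *Hpca*, and of *Tbc1d24*, *Ipo7*, *Lnpk* and *Klf6*, so no motif was particular to a side. Among the 8 cells compared, *Tmem198* and *Tra2a* were detected in the other ON cells alone. In the 21 cells not compared, *Tmem198* was detected in 3 and *Tra2a* in 8. A match describes the letters of the window and not a bound site.

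The strictest difference between the sides was detection in all 4 cells of one and in none of the other. It was met by 12 genes of the ON DS cells, which is 0.164% of the 7331 genes, and by 11 genes of the other ON cells, which is 0.150%. Among the genes with more than 1 probe set, every probe set was detected in at least 3 cells more of the same side for *Bad* in the ON DS cells and for *Pkig* and *Cdkn2aipnl* in the other ON cells.

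Of the ON DS genes, *Disp3*, a dispatched-family membrane protein with a sterol-sensing domain, had the largest difference at 7.19 on the log2 scale. Its signals were 59551, 155350, 32836 and 44964 in the ON DS cells and 63, 576, 85 and 320 in the other ON cells. Every ON DS cell lay at least 57 times above the highest other ON cell. Elsewhere in the series, 3 of the 4 ON-OFF DS cells, 1 of the 2 ON alpha cells and 1 of the 15 remaining cells had it above the threshold. *Ola1*, an Obg-like ATPase, followed at 6.62, with 11550, 100494, 27716 and 88902 against 46, 126, 577 and 30. Only 2 of its 4 probe sets were detected in any of the 8 cells. The second of these was above the threshold in ON DS 4 alone, at 90844, so the pattern rests on 1 probe set. *Ola1* was detected in 17 of the 21 cells that were not compared, among them all 4 ON-OFF DS cells, so it was widely present outside the 4 other ON cells.

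*Bad*, which encodes a pro-apoptotic member of the Bcl family, varied most among the ON DS cells. Its signals were 24552, 72868, 4311 and 182274 against 461, 355, 1740 and 28, a difference of 5.89 (15.07 ± 2.32 against 9.18 ± 1.07). *Comtd1*, a methyltransferase-domain gene, varied least, with 12746, 9970, 6606 and 6129 in the ON DS cells and no signal above 53 in the others. *Comtd1* was detected in 3 of the 21 other cells and in no ON-OFF DS cell. *Lpl*, which encodes lipoprotein lipase, had signals of 13303, 3136, 28896 and 26861 against 202, 4, 4 and 253. It was detected in none of the ON-OFF DS and ON alpha cells and in 5 of the 15 remaining cells, and its lowest ON DS value lay just above the threshold.

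*Atpaf1*, an assembly factor of the mitochondrial ATP synthase, had a difference of 4.95. *Acadl*, the long-chain acyl-CoA dehydrogenase, had 3.26, with a lowest ON DS signal of 3216 and a highest other ON signal of 2599. *Nat8l*, the enzyme that makes N-acetylaspartate in neurons, had signals of 21982, 93366, 27556 and 31708 against 267, 1653, 1792 and 526. Its second probe set was detected in 3 of the other ON cells, so for *Nat8l* the probe sets disagreed, and a second probe set also detected *Atpaf1* in 2 other ON cells. *Klhdc3*, a kelch-domain gene, had a difference of 5.15. Of its 4 probe sets, 3 were detected in at least 3 cells more of the ON DS side, 1 of which was below the threshold in ON DS 3. The remaining 3 genes were AI854703, the armadillo-repeat gene *Armc5* and *Atp13a1*, an ATPase of the endoplasmic reticulum, with differences of 5.75, 4.57 and 4.33.

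Genes of the other ON cells alone were led by *Pkig*, which encodes an inhibitor of cAMP-dependent protein kinase. Its signals were 614, 2, 46 and 28 in the ON DS cells and 46006, 33819, 35892 and 67953 in the other ON cells, the narrowest spread of the high side among these genes (SD 0.46). The difference was -6.70, both probe sets gave the pattern, and *Pkig* was detected in only 4 of the 21 cells that were not compared. *Tbc1d24*, a regulator of synaptic vesicle traffic, had signals of 140, 83, 2052 and 253 against 77111, 56428, 61425 and 15055. It was detected in 15 of the 21 cells not compared, among them 2 of the ON-OFF DS cells.

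*Ipo7*, an importin of the nuclear envelope, had signals of 23, 41, 13 and 845 against 41993, 66317, 12366 and 45870. It was detected in none of the ON-OFF DS and ON alpha cells and in 8 of the 15 remaining cells. *Lsm14a*, of processing bodies, and *Tra2a*, a splicing factor, both bind RNA and had differences of -5.97 and -4.48. *Rnf121* and *Lnpk*, both of the endoplasmic reticulum, had -5.73 and -3.60, and *Grpel1*, a cofactor of the mitochondrial heat shock protein, had -5.20. *Tmem198*, *Cdkn2aipnl* and *Rassf8* completed the list at -5.87, -4.66 and -4.53. *Tmem198* was detected in 3 of the 21 cells not compared, which is the fewest of these 11 genes.

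**Figure D2:**
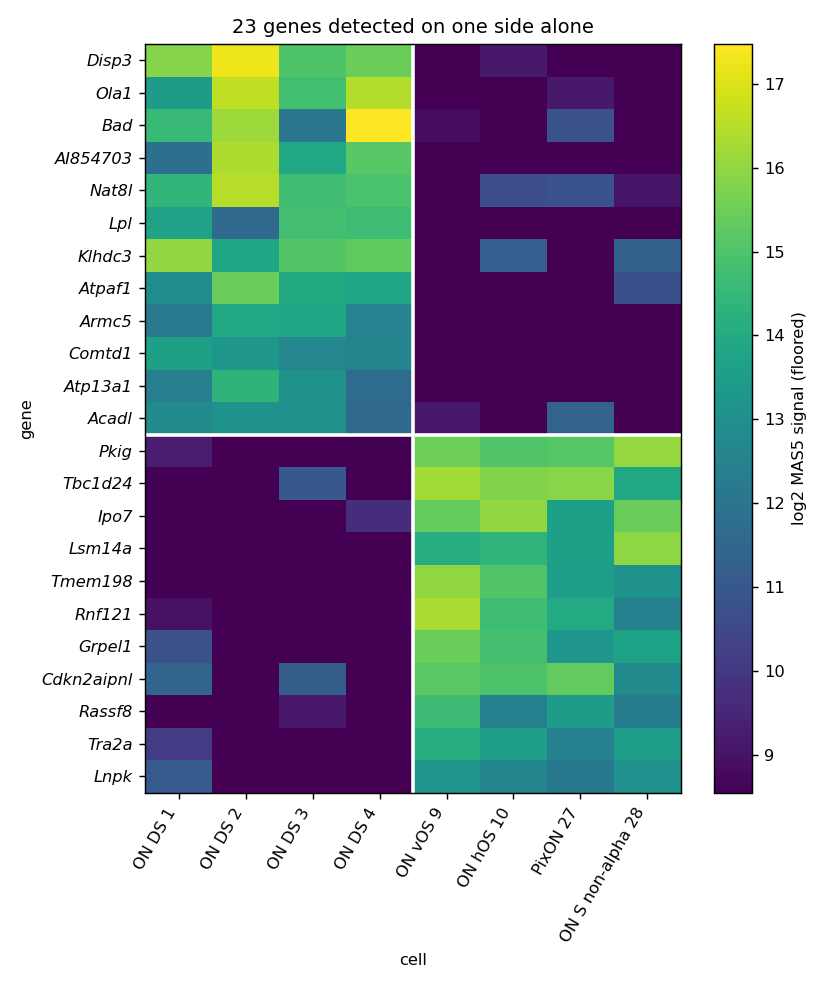
Log2 MAS5 signal, floored at 8.55, of the 12 genes detected in all 4 ON DS cells and no other ON cell (upper rows) and the 11 genes with the opposite pattern (lower rows) in the 8 cells (columns). White lines separate the sides; each block on the diagonal is above the detection threshold of 11.55 in every cell, and *Bad* and AI854703 vary most within the ON DS cells while *Pkig* is even across the other ON cells.

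The 23 genes were then read in the 21 cells that took no part in their choice. The 12 ON DS genes were detected in 25 of 48 combinations of gene and cell in the 4 ON-OFF DS cells (52.1%), with 5 to 7 of the 12 in each cell. Over all 7331 genes the share in those cells was 39.1%. In the 2 ON alpha cells it was 41.7% against 42.9%, and in the remaining 15 cells 42.2% against 33.0%, with 1 to 9 genes a cell. The shares of all genes are not a matched baseline. The rule required detection in 4 of the compared cells. The 7331 genes include 1021 detected in 1 ON DS cell alone and 1484 in 1 other ON cell alone. A particular link of the 12 genes to ON-OFF DS cells was therefore not tested. The 11 genes of the other ON cells were detected in 36.4% of combinations in the ON-OFF DS cells, 40.9% in the ON alpha cells and 36.4% in the remaining cells. Neither set was thus confined to its side. The highest number of ON DS genes was 9, in OFF T alpha 17, and the highest of the other ON genes was 9, in EyeWire 6sw 21. These were the cells with the most detected genes of the series, 4073 and 4201.

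**Figure D3:**
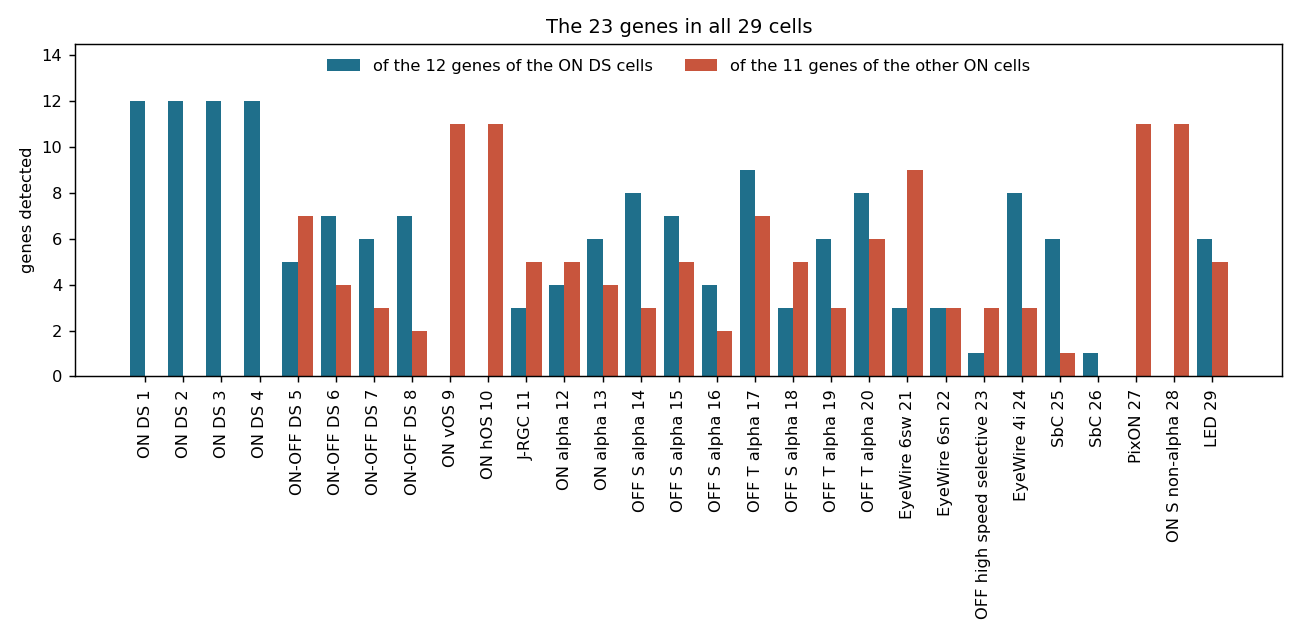
Number of the 12 genes of the ON DS cells (blue) and of the 11 genes of the other ON cells (red) detected in each of the 29 cells of the series. The values of 12 and 0, and of 0 and 11, in the 8 compared cells follow from the rule, while the 21 other cells hold 1 to 9 of the ON DS genes and 0 to 9 of the other ON genes.

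With a wider rule, a difference in detection of at least 75 percentage points (3 of 4 cells), 93 genes (1.27%) were detected more often in the ON DS cells and 159 (2.17%) in the other ON cells. The order of these counts turned with another scaling, as quantile normalization gave 143 and 133 genes and an equal number of genes in each cell gave 152 and 129. By size, 278 genes (3.79%) had a mean log2 signal at least 3 higher in the ON DS cells and 328 (4.47%) at least 3 higher in the other ON cells, where 3 on this scale is a factor of 8. Lists of genes with known roles in ganglion cells were read against these shares. Few of their members passed either rule, and the lists are described by counts and by the median difference of the members detected in at least 1 of the 8 cells. Counts of members above and below 0 stand beside 3218 above and 4113 below over all 7331 genes. The direction held with any 1 cell left out for the calcium-binding (1.16 to 1.63), GABA and glycine receptor (0.69 to 1.83), acetylcholine receptor (0.25 to 1.92) and axon growth lists (0.12 to 0.83). It turned or reached 0 with at least 1 cell left out for the synaptic vesicle, glutamate receptor, channel, adhesion, guidance, neuropeptide, transcription factor, melanopsin and direction-selective marker lists. With the 5 cells with rod transcripts left out, 3 cells remained. The medians of the calcium-binding, GABA and glycine receptor and axon growth lists were then -0.07, -0.15 and -0.33. These lay below 0 but above the median of all genes, which was -0.52 in this setting. That of the acetylcholine receptor list was 2.87 over 4 genes.

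Calcium-binding proteins differed in both directions. The EF-hand buffers and sensors of this family bind cytosolic calcium, and several of them mark neuron classes in the retina. Of 21 members detected, *Calb1* and *Hpca* were detected more often in the ON DS cells by the wider rule and *Calb2* in the other ON cells, and the median difference was 1.26, with 16 members above 0 and 5 below. The median was 0.79 without ON vOS 9 and ON S non-alpha 28. *Calb1* (calbindin) had signals of 41676, 5191, 99770 and 27936 in the ON DS cells against 13, 50893, 49 and 137. All ON DS cells expressed it, and ON hOS 10 did so at a level within their range. The difference of 4.44 became -0.87 when the ON DS cells were set against ON hOS 10 alone, and -2.08 when the 5 cells with rod transcripts were left out.

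*Calb2* (calretinin) showed the opposite. Its signals were 11810, 34, 23 and 11 in the ON DS cells against 78643, 15969, 80966 and 25508. All 4 other ON cells lay above all ON DS cells, 3 of which had no signal above the floor, and the difference was -5.50 (SD 2.49 and 1.18). *Calb2* was not particular to the other ON cells. It was detected in 19 of the 21 cells that were not compared, among them 3 of the 4 ON-OFF DS cells. *Hpca* (hippocalcin) had 4746, 25131, 11170 and 176300 against 43, 10, 56757 and 8, with PixON 27 inside the range of the ON DS cells. A second probe set of *Hpca* was detected in ON DS 4 and PixON 27 alone, at 126087 and 4341. *Pvalb* (parvalbumin) was detected in all 4 ON DS cells, at 262338, 90692, 16791 and 78966, and in 2 other ON cells, with 18, 76242, 9 and 20238. Its difference of 4.29 passed the rule of size and not that of detection.

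**Figure D4:**
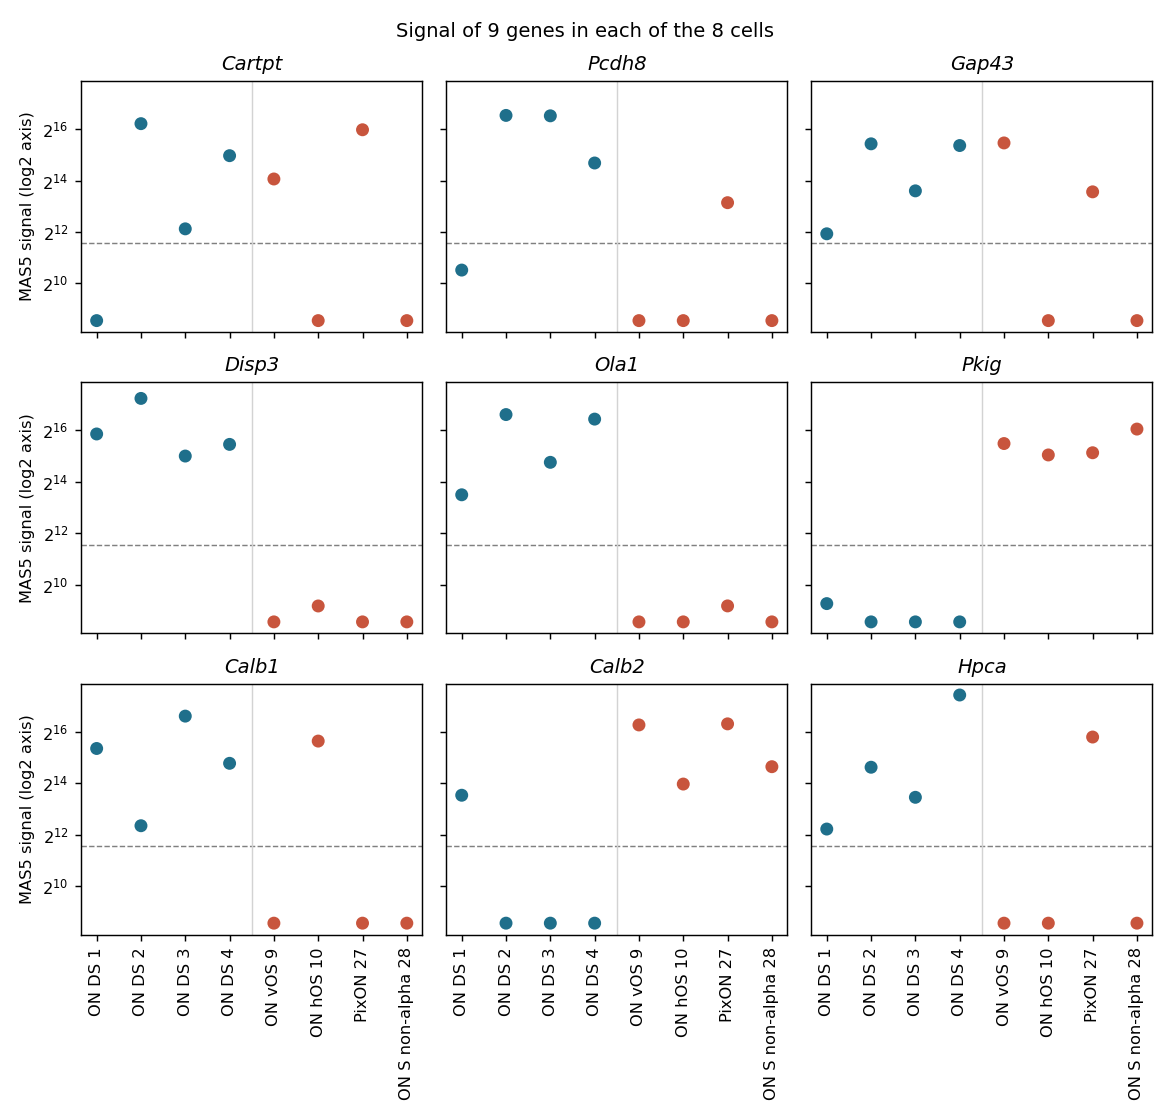
MAS5 signal on a log2 axis, floored at 375, of 9 genes in each of the 8 cells, with ON DS cells in blue, other ON cells in red and the detection threshold of 3000 as a dashed line. The marker genes in the upper row overlap between the sides, the middle row separates them by its choice, and in the lower row *Calb2* is above the threshold in ON DS 1 and all 4 other ON cells.

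Genes of the presynaptic terminal gave a mixed picture. Of 43 synaptic vesicle genes detected, 1 passed the wider rule in the ON DS cells and 0 in the other ON cells, the median difference was 0.15 (-0.09 without ON S non-alpha 28), and 22 lay above 0 and 21 below. *Bsn* (bassoon), a scaffold of the active zone, had signals of 14547, 100884, 87943 and 24702 in the ON DS cells against 13, 5, 21974 and 1636. Only PixON 27 among the other ON cells was above the threshold, at a level within the ON DS range. By size, *Syn1* (synapsin), which tethers vesicles, differed by 4.03, with 148380, 63906, 117802 and 137930 against 943, 69775, 87018 and 332. The low values of *Syn1* were those of ON vOS 9 and ON S non-alpha 28, the cells with the fewest ganglion cell markers. The same held for *Kif5a*, the axonal kinesin, which had 146453, 134512, 95576 and 69755 against 139, 90858, 67998 and 9. *Slc17a7*, the vesicular glutamate transporter of photoreceptors and bipolar cells, differed by -4.07. It was highest in ON vOS 9 and ON S non-alpha 28, at 85401 and 60351, and both cells held 11 of the 13 rod genes.

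Receptors for the transmitters of the inner retina ranged from genes detected in all 8 cells to genes of a single cell. Of 5 acetylcholine receptor genes detected, none passed the wider rule, and the median difference was 0.81. *Chrnb2*, a beta subunit of nicotinic receptors, had signals of 82658, 44432, 15348 and 81470 in the ON DS cells against 354, 1886, 8093 and 17117. Among the ON DS cells only ON DS 3 lay below the highest other ON cell, and the difference was 3.88. Of 9 GABA and glycine receptor genes, none passed the wider rule and 7 lay above 0, with a median of 1.25. This median was -0.21 without ON vOS 9 and ON S non-alpha 28 and that of the acetylcholine receptor genes -0.46. *Gabbr1*, a subunit of the metabotropic GABA receptor, was detected in all 8 cells, with a difference of 1.52. *Glra1*, a glycine receptor subunit, was detected in ON DS 1 and ON DS 2 alone, at 4144 and 60155. The 10 glutamate receptor genes had a median of 0.01, which was -1.94 without ON vOS 9 and ON S non-alpha 28 and between -1.01 and 0.78 with 1 cell left out. *Grin2d*, an NMDA receptor subunit, was detected in ON hOS 10 and ON S non-alpha 28, at 37284 and 72735, and in no ON DS cell.

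Voltage-gated channel genes were also uneven from cell to cell. Of 29 potassium and HCN channel genes detected, *Kcnab1*, an auxiliary subunit of potassium channels, passed the wider rule. Its signals were 5255, 7275, 345 and 3657 in the ON DS cells against 277, 122, 6 and 62. A second probe set of *Kcnab1* was detected in ON DS 4 alone, at 5293. *Kcnab3*, a related subunit, had 122235 in ON DS 1 and no detection in the other 3 ON DS cells, while ON vOS 9, ON hOS 10 and PixON 27 had 69890, 71664 and 36474. The medians gave no direction. They were -0.18 for these channels, 0.11 for 7 sodium channel genes and 0.33 for 16 calcium channel genes, but -0.93, -2.23 and -0.84 without ON vOS 9 and ON S non-alpha 28, and 0.88, 1.25 and 1.16 without ON hOS 10. *Scn3b*, an auxiliary sodium channel subunit, was detected in ON DS 2 and ON DS 3 alone, at 22274 and 40305.

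Among neuropeptide and granin genes, *Scg2* (secretogranin) was detected in no ON DS cell and in 3 other ON cells. Its signals were 1739, 3, 1594 and 9 against 49, 40118, 9942 and 11836, so that ON vOS 9 lay with the ON DS cells, and the difference was -3.04. Other granins did not follow it: *Chgb* and *Scg5* were detected in all 8 cells, with differences of 0.55 and 0.29. *Klf6*, a zinc-finger factor linked to axon growth, had 40, 3, 87 and 457 in the ON DS cells against 29, 24122, 4990 and 4353, a difference of -3.25. *Klf7*, a member of the same family, was detected in ON DS 1 and ON DS 2 alone. *Basp1*, a growth cone protein, was detected in ON vOS 9 and PixON 27 and in no ON DS cell (-3.54), although *Gap43*, which shares its location in the growth cone, had the opposite sign. The 22 axon growth genes had a median of 0.45.

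Adhesion and guidance genes contribute to where dendrites and axons of a subtype connect. Cadherins and protocadherins had a median of -0.88 over 15 genes, which was 0.02 without ON hOS 10, 0.06 without PixON 27 and -0.04 after quantile normalization. *Pcdh8* was the only member past the rule of size. *Pcdh9* was detected in all 8 cells, at 25137, 64870, 96857 and 83181 in the ON DS cells against 16633, 23341, 25982 and 7528, and 3 ON DS cells lay above every other ON cell. *Pcdh10* was detected in ON DS 3 and ON DS 4 alone. Of 22 immunoglobulin adhesion genes 14 lay above 0 and the median was 0.82, which was -0.2 without ON DS 3. *L1cam*, an axonal adhesion molecule, was detected in 4 ON DS and 2 other ON cells. The 23 axon guidance genes had a median of -0.56 (0.09 without ON hOS 10), and *Sema4f*, a semaphorin, had 5536, 21099, 62249 and 22439 against 46, 13986, 4337 and 101. The 9 genes detected from a list of direction-selective cell markers had a median of 0.36, with 5 above 0 and 4 below. This median was -1.12 without ON DS 3 and -0.09 without ON vOS 9 or ON hOS 10. *Mmp17* was detected in ON DS 3 and ON S non-alpha 28, and *Fam163a* in ON DS 3, ON DS 4 and PixON 27. *Drd4* and *Cdhr1* differed by -2.81 and -2.89. Both were highest in ON vOS 9, at 103909 and 284956, and next in ON S non-alpha 28, at 48427 and 173311. Those cells also had the highest rod signal.

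**Figure D5:**
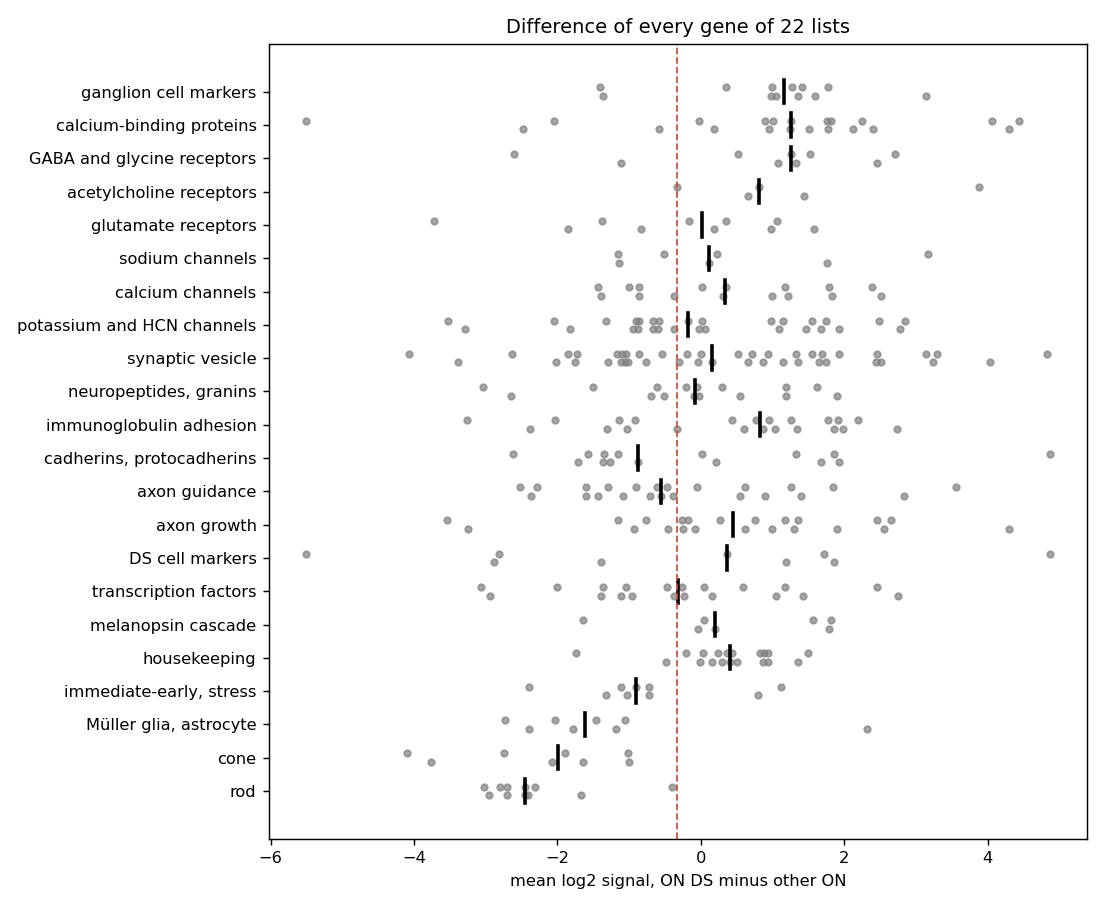
Difference of mean log2 signal, ON DS minus other ON (x axis), of every gene detected in at least 1 of the 8 cells in 22 gene lists (rows). Black bars are list medians and the dashed line is the median of all 7331 genes (-0.33). The rod and cone lists lie below 0 with every gene, and most neuronal lists spread to both sides.

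Lists of other retinal cells lay below the median of all genes. The medians were -2.45 for rods, -1.99 for cones, -1.62 for Müller glia and astrocytes and -1.5 for amacrine cells, and 0 of 11 rod genes lay above 0. The rod median was 0.49 without ON vOS 9 and ON S non-alpha 28, and that of Müller glia and astrocytes 0.81 without the 5 cells with rod transcripts. Ganglion cell markers had a median of 1.16, which was 0.51 without ON vOS 9 and ON S non-alpha 28, and 19 housekeeping genes had 0.41. Bipolar genes had -0.92 over 5 genes. The medians of the 7 microglial and vascular and the 2 horizontal cell genes, and of the 3 genes of accessory optic wiring, changed sign when 1 cell was left out and gave no direction. The 9 immediate-early and stress genes had -0.91, which was 0.76 without the 5 cells with rod transcripts. *Fos*, which neurons switch on after strong activity, was detected in 1 ON DS cell (ON DS 4, at 27254) and in 3 other ON cells, at 15094, 25278 and 7549.

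The 4 ON DS cells were not uniform. ON DS 1 lacked *Cartpt* and *Pcdh8* above the threshold and expressed *Calb2*, unlike the other 3. It also had *Opn4* (melanopsin, the photopigment of intrinsically photosensitive RGCs) at 34985 and *Eomes*, a transcription factor of those cells, at 28569. In the other 3 ON DS cells neither gene exceeded 189. ON hOS 10 was the only other of the 8 cells with these genes, at 20203 for *Opn4* and 25568 for *Eomes*. *Prkcq*, also of the melanopsin list, was detected in ON DS 1 alone of the 8 cells, at 79690, with 443 in ON hOS 10. Outside the comparison, *Opn4* was detected in both ON alpha cells. ON DS 1 and ON hOS 10 shared 72 genes that no other of the 8 cells had above the threshold. The list was led by *Prph*, the intermediate filament peripherin, at 106279 and 114288, and by the homeobox gene *Irx6* at 101648 and 64648, with no signal above 227 in the other 6 cells. A count of 72 was not the highest for ON DS 1, which shared 96 genes with PixON 27 alone, 78 with ON S non-alpha 28 alone and 63 with ON DS 3 alone.

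Likeness of the cells over all 7331 genes was only slightly greater within the ON DS cells. Pearson's r of log2 signal was 0.34 on average over the 6 pairs of ON DS cells (0.27 to 0.43), 0.29 over the 16 pairs of an ON DS and another ON cell (0.18 to 0.43) and 0.27 over the 6 pairs of other ON cells (0.16 to 0.38). These are values across genes, which are no independent replicates, and cells with rod transcripts share those genes. ON DS 1 was as near to PixON 27 (0.43) as to ON DS 4 (0.43), and ON vOS 9 and ON S non-alpha 28, the cells with the highest rod signal, had the highest r among the other ON cells (0.38). Of the genes detected in all cells of a side, 551 in the ON DS and 556 in the other ON cells, 277 were common to all 8, which is 50.3% and 49.8% of each set. Ranked by their lowest signal, they were led by genes of glycolysis (*Gapdh*, *Pkm*, *Aldoa*), and included *Snap25*, *Scg5* and *Clstn1*. Genes detected in a single one of the 8 cells numbered 199 to 319 for each ON DS cell and 231 to 447 for each other ON cell.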

How the data were processed

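A set of 8 single-cell arrays, 1 per cell, entered the comparison. Somata were aspirated after recording, mRNA was reverse transcribed from an oligo-dT primer, amplified for 35 PCR cycles and hybridized. The values used are signal intensities that the authors computed with the MAS5 algorithm and deposited for 29 arrays (version and genome build not given in the sources used here). Their 2% trimmed mean was 1500 on each array, and no detection calls were used here. Of 45101 probe sets, 34958 had 1 gene in the platform annotation, 932 had several and 9211 none, and symbols were updated through RefSeq gene identifiers. Where a gene had several probe sets, the one brightest on average across the 29 arrays, on the floored log2 scale, stood for it.

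Detection (at least 3000), the floor (375) and the 3 rules were computed in Python 3.11.15 with pandas 2.3.3, numpy 2.4.6, scipy 1.17.1 and matplotlib 3.10.9, and the rules were checked on simulated data. Named genes were the 3 marker genes *Cartpt*, *Pcdh8* and *Gap43*, up to 12 genes a side with the largest difference among those detected on one side alone, and list members with a detection difference of at least 3 cells (up to 4 a list and direction). Others were named to describe a list, and the pairs of cells and genes in the last paragraphs were chosen after their values were seen. The members and the 28 lists (619 of 678 genes with a value) were chosen with earlier results of these data known. Alternatives were another threshold, floor, normalization, probe set rule or centre, equal numbers of genes per cell, and cells left out. A gene that is not expressed and one lost in amplification cannot be told apart in a single cell, and precision is limited by the small number of arrays.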

Additional observations from a re-analysis of the deposited data

Results flagged for a closer look

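Among 29 measures with 4 ON DS values, 2 had one cell apart from 3 cells of equal value. For *Calb2*, ON DS 1 (11810) was above the threshold and the other 3 cells were at the floor. For the number of cone genes, ON DS 3 held 1 and the other 3 cells 0. The gap was 1.0 of the whole range in both, which follows from the 3 tied values, so the usual rate of about 1 in 20 groups flagged by chance does not apply to them.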

How the results depend on the processing

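Counts rested strongly on which cells were included. Leaving out each cell in turn gave 13 to 33 genes for detection in all ON DS cells alone (12 with all cells) and 17 to 56 for the other ON cells alone (11), 70 to 145 (93) and 91 to 203 (159) by the wider rule, 242 to 425 (278) and 327 to 506 (328) by size, and 0.03 to 0.08 for the difference in mean r (0.05). A side with fewer cells meets the strict rule more easily. Without the 5 cells with rod transcripts, which left ON DS 2 and ON DS 4 against ON hOS 10, the strict and wider rules gave 268 genes for ON DS and 1264 for the other ON cell, the rule of size 993 and 1628, and the difference in r was 0.11. Without ON vOS 9 and ON S non-alpha 28, an alternative chosen after seeing the data, the strict counts were 20 and 162, and 444 genes by the wider rule and 697 by size were higher in the other ON cells. The wider rule gave 143 ON DS genes after quantile normalization and 152 with 2773 genes in each cell. A floor at 1500 gave 83 and 68 genes by size, and no floor 909 and 1148. Of the 12 ON DS genes, 7 remained at a threshold of 1500, 6 at 6000 and 10 after quantile normalization, and of the 11 other ON genes 7, 7 and 9 remained. The median difference of all genes was -0.1 after quantile normalization. Directions turned for *Klf6* (0.07) and *Scg2* (1.08) against ON vOS 9 alone, for *Calb1* against ON hOS 10 alone (-0.87) and without the cells with rod transcripts (-2.08), and for *Hpca* against PixON 27 alone (-1.37).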
